A study of Mus musculus with 2 samples.

Results

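The genes of the Hedgehog pathway examined here were the ligand Shh, its receptor Ptch1, the signal transducer Smo, the co-receptors Gas1, Boc and Cdon, the Gli regulator Sufu and the transcription factors Gli1, Gli2 and Gli3. These 10 genes were chosen by symbol from the 24411 genes in the count tables. They were measured by bulk RNA-seq of tissue cut out with a laser from sections of the mouse brain at embryonic day 16.5. There were 2 libraries, 1 from the subventricular zone (SVZ), the germinal layer beside the lateral ventricles, and 1 from the cortex, where postmitotic neurons settle. The mice carried no treatment or engineered allele named in the labels, and the strain is not given in the sources used here. The SVZ library yielded 51435667 reads assigned to genes and the cortex 22050693, so that 1 read was worth 0.0194 and 0.0454 reads per 1000000 gene reads (CPM) respectively. With 1 library per area there was no replicate check and no test between the areas. Intervals are exact 95% Clopper-Pearson intervals of counting error alone. They treat each read as a new molecule, although copies made by PCR cannot be told apart here, and so may be too narrow. They compare the reads of these libraries, not the areas in general, and below each library is called by its area.

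In the resting state of the Hedgehog pathway, Ptch1 keeps Smo out of the primary cilium, and Gli proteins are phosphorylated and cut into repressors. When Shh binds Ptch1 together with a co-receptor, Smo enters the cilium, Sufu lets go of the Gli proteins and these act as activators. Gli3 is the main repressor, Gli2 the main activator, and Gli1 and Ptch1 are themselves switched on by the pathway. In the developing forebrain Shh patterns the ventral side, and in the dorsal side Gli3 limits ventral fates and takes part in the proliferation of cortical progenitors.

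Of the 9 genes that receive or relay the signal, 6 were at least 2-fold higher in the SVZ than in the cortex, beside 23.0% of all genes with a ratio, whereas the ligand Shh was not read in either. Gli3 was 561-fold higher, Gas1 25.6-fold, Cdon 13.7-fold and Smo 8.02-fold higher in the SVZ. Gli2 and Gli1 had no read in the cortex. Against a level of 3 cortex reads, the SVZ level was 162-fold higher for Gli2 and 13.0-fold for Gli1. Boc and Sufu differed by less than 2-fold. Ptch1 was the exception in direction, with a CPM 2.54-fold higher in the cortex. That rests on 34 SVZ and 37 cortex reads, and the interval of the ratio reached inside 2-fold. A lower level in bulk tissue can mean fewer cells of a type or less RNA per cell, and these cannot be told apart here.

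The windows around a transcription start were taken from RefSeq on GRCm38.p6, from 250 bases before the start to 50 after it, for Gli3 and Gli2, which had the largest differences between the areas, and for Ptch1, which had the opposite direction. Of the 10 genes 7 had an entry, and Shh, Boc and Gli1 had none. Capitals mark each GC box (GGGCGG or its reverse complement), the site of Sp1-type factors found in many promoters.
Gli3, chr13:15463473-15463772, plus strand: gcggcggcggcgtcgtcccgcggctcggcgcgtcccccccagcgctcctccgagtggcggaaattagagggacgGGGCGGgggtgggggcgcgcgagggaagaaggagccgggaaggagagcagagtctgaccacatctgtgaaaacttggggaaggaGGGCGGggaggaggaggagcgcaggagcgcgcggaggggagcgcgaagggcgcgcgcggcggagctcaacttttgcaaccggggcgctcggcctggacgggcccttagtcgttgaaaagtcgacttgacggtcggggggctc
Gli2, chr1:119053570-119053869, minus strand: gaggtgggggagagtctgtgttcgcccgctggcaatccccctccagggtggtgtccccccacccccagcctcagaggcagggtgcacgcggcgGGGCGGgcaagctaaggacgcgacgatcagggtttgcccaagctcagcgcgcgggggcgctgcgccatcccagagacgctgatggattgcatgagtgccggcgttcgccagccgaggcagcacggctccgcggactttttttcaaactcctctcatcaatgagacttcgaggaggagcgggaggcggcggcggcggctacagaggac
Ptch1, chr13:63565686-63565985, minus strand: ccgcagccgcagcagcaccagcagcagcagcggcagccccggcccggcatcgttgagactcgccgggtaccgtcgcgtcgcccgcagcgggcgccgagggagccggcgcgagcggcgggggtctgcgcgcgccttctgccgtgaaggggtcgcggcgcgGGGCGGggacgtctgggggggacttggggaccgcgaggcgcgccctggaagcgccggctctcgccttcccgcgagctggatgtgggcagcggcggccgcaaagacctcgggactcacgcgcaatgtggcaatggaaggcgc

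All 3 windows were rich in CpG, as the promoters called CpG islands are. The RefSeq starts used for Ptch1 and Gli3 lie inside the spans that GENCODE gives these genes. The Gli3 window held 39 CpG, the Gli2 window 28 and the Ptch1 window 47, where the median over all 32851 windows was 7. A GC box was found in 5 of the 7 windows, and in 35.7% of all windows. The Gli consensus GACCACCCA, searched on both strands, was in 0 of the 7 windows and in 0.253% of all windows. Such a match or its lack describes these letters only.

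The ligand was examined first. Shh (chromosome 5, 28456815 to 28467256) had 0 reads in the SVZ and 0 in the cortex, which allows up to 0.0583 CPM and 0.136 CPM, the levels of 3 reads. The exact intervals reached 0.0717 CPM in the SVZ and 0.167 CPM in the cortex. No ratio can be given. The stranded count columns, which would hold reads lost to its antisense neighbour 9530036O11Rik, were also at 0. Shh was thus not detectable at this depth in either piece of tissue. The other Hedgehog ligands were barely read. Dhh, known from Schwann and Sertoli cells, had 28 reads in the SVZ and 0 in the cortex. Ihh, known from bone growth plates, had 0 reads and 5.

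Among the receiving proteins at the membrane, Ptch1 (chromosome 13, 63508328 to 63573598), which binds the ligand and holds Smo back, was scarce in both areas. It had 34 reads or 0.661 CPM in the SVZ (0.458 to 0.924) and 37 reads or 1.68 CPM in the cortex (1.18 to 2.31). The log2 ratio, here always of the SVZ level over the cortex level in CPM, was -1.34 (-2.06 to -0.63). The intervals of the levels did not overlap, but the interval of the ratio reached inside 2-fold. Smo (chromosome 6, 29735503 to 29761365), the membrane protein that carries the signal into the cell, went the other way. It had 617 reads or 12.0 CPM in the SVZ and 33 reads or 1.497 CPM in the cortex, a log2 ratio of 3.00 (2.50 to 3.55). After division by exon length, Smo was 37.5 times as abundant as Ptch1 in the SVZ (26.5 to 54.6) and 1.84 times in the cortex (1.12 to 3.03). These intervals lay far apart, so the balance of transducer to receptor differed between the libraries beyond counting error.

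The co-receptors, which hold the ligand at the cell surface and present it to Ptch1, differed among themselves. Gas1 (chromosome 13, 60174405 to 60177365), a lipid-anchored protein, had 5737 reads or 111.5 CPM in the SVZ and 96 reads or 4.35 CPM in the cortex, a log2 ratio of 4.68 (4.39 to 4.99). Cdon (chromosome 9, 35421128 to 35507652), an immunoglobulin-family membrane protein, had 4937 reads or 96.0 CPM and 155 reads or 7.03 CPM, a log2 ratio of 3.77 (3.54 to 4.01). Both were higher in the SVZ, and their intervals did not overlap each other. Gas1 shares exon bases with Gm48488 on the other strand, but its stranded columns summed to the same 5737 and 96 reads. Boc (chromosome 16, 44485049 to 44558897), the relative of Cdon that also serves as an axon guidance receptor, had 1293 reads or 25.1 CPM and 453 reads or 20.5 CPM. Its log2 ratio was 0.29 (0.14 to 0.45), with an interval above 0, and the median was 0.11 over the 12738 genes whose mean CPM was 1 or more.

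**Figure D1:**
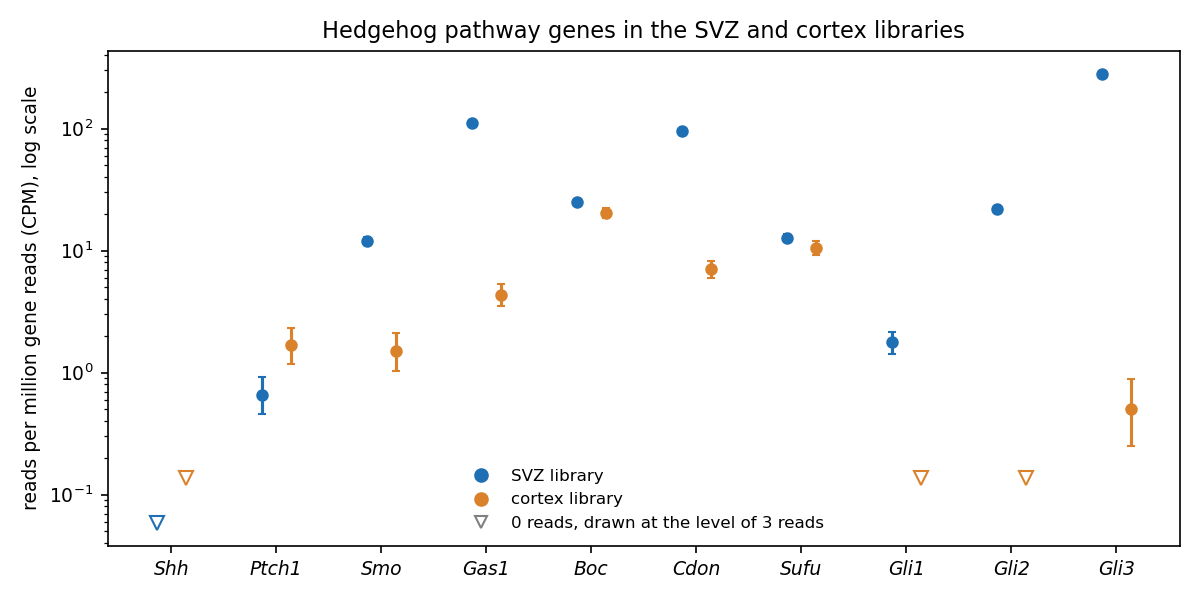
Level of each Hedgehog pathway gene in the SVZ (blue) and the cortex (orange), in CPM on a log scale, with 95% counting intervals that are often smaller than the point. Open triangles stand for 0 reads and are drawn at the level of 3 reads, and Gli3 spans the widest range, from 280.1 CPM in the SVZ to 0.499 CPM in the cortex.

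The make-up of the co-receptor reads was therefore different in the libraries. In the SVZ Gas1 held 47.9% of the reads of these 3 genes (47.0 to 48.8), Cdon 41.3% (40.4 to 42.1) and Boc 10.8% (10.3 to 11.4). In the cortex Boc held 64.3% (60.7 to 67.9), Cdon 22.0% (19.0 to 25.3) and Gas1 13.6% (11.2 to 16.4). Boc was thus the least read co-receptor in the SVZ and the most read in the cortex. Because Gas1 has 2.961 kilobases of exon and Cdon 7.503, division by length raised Gas1 to 67.1% and lowered Cdon to 22.8% in the SVZ. In the cortex Boc then held 65.7%, Gas1 20.9% and Cdon 13.3%. The summed co-receptor level was 232.7 CPM in the SVZ and 31.9 CPM in the cortex, of which Boc gave 20.5.

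Sufu (chromosome 19, 46396896 to 46488804), which holds Gli proteins in the cytoplasm and aids their processing, was read at like levels. It had 658 reads or 12.8 CPM in the SVZ and 232 reads or 10.5 CPM in the cortex, a log2 ratio of 0.28 (0.06 to 0.50). Sufu and Boc had overlapping ratio intervals, and both lay within the quartiles of all genes, -0.56 and 0.76.

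Of the 10 genes, the transcription factors Gli3 and Gli2 had the largest differences, while the bound for Gli1 was lower than the ratio of Gas1. Gli3 (chromosome 13, 15463235 to 15730026) had 14407 reads or 280.1 CPM in the SVZ and 11 reads or 0.499 CPM in the cortex. The log2 ratio was 9.13 (8.29 to 10.14), and 8 of the 12738 genes had a higher one, with zeros set at 3 reads. The cortex level was 0.178% of the SVZ level. Gli2 (chromosome 1, 118834132 to 119053619) had 1135 reads or 22.1 CPM in the SVZ and none in the cortex. Gli1 (chromosome 10, 127329882 to 127341974) had 91 reads or 1.77 CPM (1.42 to 2.17) and none. The bounds against 3 cortex reads were log2 ratios of 7.34 for Gli2 and 3.70 for Gli1. The exact limit for 0 cortex reads, 0.167 CPM, is higher than the level of 3 reads and would lower these bounds. Gli1 shares exon bases with Arhgap9 on the other strand, and the stranded columns, summed, held 10 more Gli1 reads in the SVZ and 1 in the cortex, so that its level is less certain than its interval shows.

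Within the Gli family the SVZ reads were mostly Gli3. It held 92.2% of the 15633 Gli reads (91.7 to 92.6), Gli2 7.26% (6.86 to 7.68) and Gli1 0.582% (0.469 to 0.714). Per kilobase of exon the shares were 89.9%, 8.89% and 1.17%, in the same order. In the cortex all 11 Gli reads were of Gli3. With so few reads, a count of 0, taken as 3 reads, still allows Gli1 or Gli2 a share of up to 27.3% (28.5% by the exact interval), and the family's make-up in the cortex was not measurable at this depth.

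**Figure D2:**
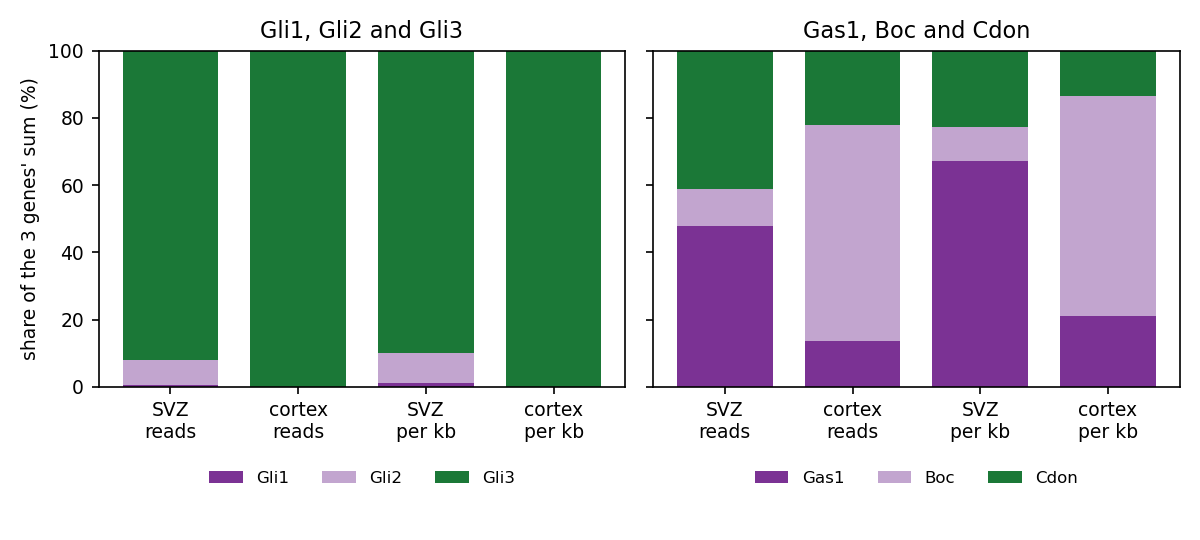
Share of each gene in the sum of the Gli family (left) and of the co-receptors (right), in percent, for both libraries, by reads and by reads per kilobase of exon. Gli3 fills most of the Gli bars, with 92.2% of SVZ reads and all 11 cortex reads, and Boc goes from 10.8% of co-receptor reads in the SVZ to 64.3% in the cortex.

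Levels were ordered per kilobase of exon, since longer transcripts give more reads. In the SVZ Gas1 came first with 37.7 CPM per kilobase (36.7 to 38.7), then Gli3 with 33.6 (33.1 to 34.2), Cdon with 12.8 and Boc with 5.65. Gli2 with 3.32 (3.13 to 3.52) and Smo with 3.17 (2.93 to 3.43) came next and did not differ beyond counting error. Sufu with 1.91, Gli1 with 0.436 and Ptch1 with 0.0847 followed, and Shh was last at 0. All other neighbours in this order had intervals that did not overlap. Exon length here joins the exons of all annotated transcripts of a gene. For Sufu that is 6694 bases, though its longest transcript has 4522, and its levels and overlaps in both areas depend on this choice.

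In the cortex the order was another one. Boc came first with 4.62 CPM per kilobase (4.20 to 5.06), followed by Sufu with 1.57 (1.38 to 1.79) and Gas1 with 1.47 (1.19 to 1.80), whose intervals overlapped. Cdon came next with 0.937, then Smo with 0.396 (0.273 to 0.556) and Ptch1 with 0.215 (0.151 to 0.296), of which the last 2 overlapped. Gli3 stood at 0.0599 (0.0299 to 0.107) per kilobase, above only the 3 genes at 0 reads, and its interval reached under the level of 3 reads for Shh (0.0478) and Gli1 (0.0335) but not for Gli2 (0.0205). Gli3 was thus the second of the 10 genes in the SVZ and the seventh in the cortex.

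To read these ratios against the rest of the transcriptome, genes whose levels lay 2-fold apart or more were counted, provided that their mean CPM was 1 or more. Of the 12738 such genes 20.0% were higher in the SVZ and 15.6% in the cortex. Of the 10 Hedgehog genes 8 reached that mean. Gli2, Gli3, Gas1, Cdon and Smo, 5 of them, were higher in the SVZ, Ptch1 was higher in the cortex and Boc and Sufu lay in between. Gli2 and Gli3 reached the minimum through the SVZ alone and Ptch1 through the cortex alone, so that these 3 had to differ by 2-fold, as had 539 of the genes higher in the SVZ and 371 of those higher in the cortex. Gas1, Cdon and Smo could have gone either way, as could Boc and Sufu. Gli1 and Shh were under the minimum. With no minimum, 9 genes had a ratio, 6 were 2-fold higher in the SVZ and 1 in the cortex, beside 23.0% and 18.2% of 15847 genes. At 4-fold, 5 of the 8 were higher in the SVZ, beside 10.2% of all genes, and 0 in the cortex, beside 7.01%.

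**Figure D3:**
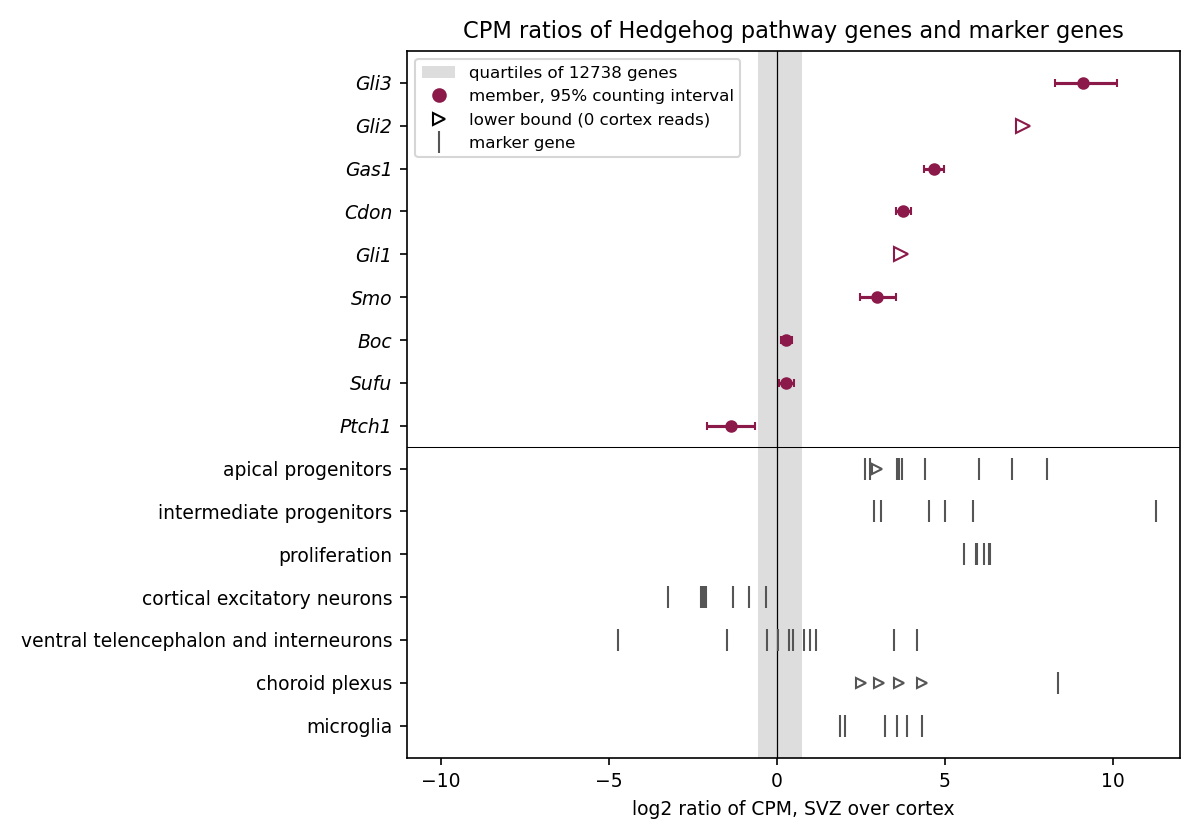
Log2 ratio of SVZ over cortex CPM of 9 Hedgehog pathway genes, with 95% counting intervals, above single genes of marker lists for cell types. Open triangles are lower bounds for genes with 0 cortex reads and the grey band runs between the quartiles of 12738 genes, in which Boc (0.29) and Sufu (0.28) lie while Gli3 (9.13) lies far to the SVZ side.

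The labelled areas were checked with marker genes, and these moved with the results above. In the marker lists a gene was called higher by the direction of its ratio alone. By that rule 8718 of the 15847 genes with a ratio were higher in the SVZ. All 10 apical progenitor markers were higher in the SVZ, with log2 ratios from 2.64 to 8.05, as were 6 of 6 intermediate progenitor markers (2.89 to 11.29) and 6 of 6 proliferation markers (5.58 to 6.35). All 8 markers of cortical excitatory neurons were higher in the cortex (-3.24 to -0.32). In summed level the apical markers had 6623 CPM in the SVZ and 143.2 CPM in the cortex. Choroid plexus markers were higher in the SVZ for 5 of 5 genes, with 246.7 CPM in sum against 0.726 CPM, and 4 of them were at 0 in the cortex. Microglial markers were higher for 6 of 6, with 50.3 against 5.53 CPM. Of 11 markers of the ventral telencephalon and interneurons, 8 were higher in the SVZ, but the sum was 188.4 against 517.4 CPM. That sum rests on Npy, and without it the direction turned, with 174.1 CPM in the SVZ against 138.5 in the cortex. The part of these cells in the Hedgehog gene levels was not tested.

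The remaining marker lists differed less or held few reads. Blood vessel markers were higher in the SVZ for 5 of 7 genes, with 143.4 CPM in sum against 108.7. Oligodendrocyte precursor markers were higher for 2 of 5, with 12.1 against 12.0 CPM, and meningeal markers for 2 of the 5 with a ratio, with 4.59 against 9.39 CPM. All 3 Cajal-Retzius markers with a ratio were higher in the cortex, with 3.73 against 30.8 CPM. Of 6 erythroid markers 4, the globin genes, were listed at 0 in both libraries, and the other two were higher in the SVZ.

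Gas1, Cdon and Smo had log2 ratios in the range of the apical progenitor markers, and Gli3 was above the highest of them, Pax6 (9245 and 15 reads, log2 ratio 8.05, interval 7.32 to 8.88). This was not particular to the apical list. Gas1, Cdon and Smo also lay in the range of the intermediate progenitor markers (2.89 to 11.29), as did Gli3. Cdon and Smo lay in that of the microglial markers (1.90 to 4.33). Of the choroid plexus markers only Ttr (8.37) had cortex reads. The ratios of the other 4 are lower bounds, so no range of that list can be set beside these genes. The intervals of Gli3 and Pax6 overlapped in these counts. The stranded columns, summed, held 9649 and 57 Pax6 reads, for a log2 ratio of 6.18 (5.80 to 6.58), which is under that of Fabp7 (6.99) and does not overlap Gli3. Among the 9027 genes whose mean CPM was 10 or more, the 3 nearest to Gli3 in the CPM of both libraries were Ttr, Pax6 and Spc24, at log2 distances of 0.58, 0.78 and 1.02. That likeness rests on 2 libraries, and by the stranded columns Pax6 lay 2.44 from Gli3.

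The rest of the pathway was taken from a list ordered by role. Of 36 further pathway genes all were listed, and for 30 the mean CPM was 1 or more. Of these, 6 were at least 2-fold higher in the SVZ, or 20.0%, and 3 in the cortex, or 10.0%, beside 20.0% and 15.6% of all genes. The share of genes higher in the SVZ was near that of the whole transcriptome, and Evc, Hhip and Gpc3 had to differ for the same reason as Gli2. Their median log2 ratio was -0.21, against 0.11 over all genes.

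Ligand release leaned to no common side. Disp1, the transporter that frees lipid-modified Hedgehog from the producing cell, had 180 SVZ reads against 67 cortex reads, for a log2 ratio of 0.20 (-0.21 to 0.63). Hhat, which adds the palmitate, had 96 reads against 48, for a log2 ratio of -0.22 (-0.74 to 0.31). For these genes a difference was not detectable at this depth. Scube1, of the secreted Scube family of which Scube2 helps to release the ligand, had 383 reads against 695, for a log2 ratio of -2.08 (-2.27 to -1.90), a CPM 4.23-fold higher in the cortex. Scube2 had 19 and 6 reads and Scube3 2 and 8.

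Of 4 counted genes for proteins that bind the ligand at the surface, 3 were at least 2-fold higher in the SVZ, beside 20.0% of all genes, but Hhip and Gpc3 passed the minimum through the SVZ alone and had to be. Hhip, a decoy receptor that is itself induced by the pathway, had 169 SVZ reads against 9 from the cortex, with a log2 ratio of 3.01 (2.05 to 4.16). The glypicans, heparan sulphate proteoglycans, were Gpc3 (343 and 11 reads, log2 ratio 3.74, interval 2.88 to 4.76), Gpc6 (4346 and 232 reads, 3.01, 2.81 to 3.20) and Gpc4 (3936 and 984 reads, 0.78, 0.68 to 0.88). Lrp2, a large endocytic receptor that takes up Shh, had 86 SVZ reads and 0 cortex reads, 12.3-fold higher in the SVZ against a level of 3 cortex reads. Its mean CPM was under 1.

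Genes that act on Smo at the cilium were divided. Evc, a ciliary partner of Smo, had 325 SVZ reads and 4 cortex reads and a log2 ratio of 5.12 (3.75 to 7.01). Its partner Evc2, with which it forms a complex, had 70 reads against 45, for a log2 ratio of -0.58 (-1.15 to -0.01). The genes of this pair thus differed from each other beyond counting error. Tulp3, which brings membrane proteins into the cilium, had a log2 ratio of 1.31 (1.04 to 1.57), and Efcab7, which anchors the Evc complex, 1.11 (0.94 to 1.27). Arrb1, a beta-arrestin, was 2.08-fold higher in the cortex, with a log2 ratio of -1.06 (-1.22 to -0.89). The other 5 counted genes, Evc2, Iqce, Grk2 (listed under its older symbol Adrbk1), Arrb2 and Mgrn1, lay within 2-fold with intervals wholly under 0. Grk2, at -0.94, passed 2-fold under TMM, upper-quartile and DESeq2 scaling, which brought the cortex count to 4. Gpr161, the ciliary receptor that keeps the pathway off, had 11 and 7 reads.

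The machinery that phosphorylates and degrades Gli proteins differed little. Of 14 genes 13 lay within 2-fold, or 92.9%, beside 64.4% of all genes, among them the protein kinase A subunits Prkaca (log2 ratio -0.23), Prkacb (-0.75) and Prkar1a (-0.15), the kinases Csnk1a1 (0.22) and Gsk3b (-0.47), and the ubiquitin ligase parts Btrc (-0.10), Fbxw11 (-0.20), Cul3 (0.64) and Spop (-0.40). Most of the 14 had a mean CPM over 10, and among all 9027 genes with a mean of 10 or more, 6573 lay within 2-fold. Kif7, the ciliary kinesin that organizes Gli and Sufu at the cilium tip, had 246 reads against 87, for a log2 ratio of 0.28 (-0.08 to 0.65). It overlaps a gene on the other strand, and the stranded columns, summed, held 26 and 7 more of its reads. Dyrk2, a kinase that marks Gli2 for degradation, was 3.24-fold higher in the cortex, with 320 reads against 444, for a log2 ratio of -1.69 (-1.91 to -1.48). Gli3, the main object of this machinery, differed 561-fold (314 to 1125), on 11 cortex reads. The machinery acts on Gli protein and only RNA was measured, so a link between these levels was not tested.

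**Figure D4:**
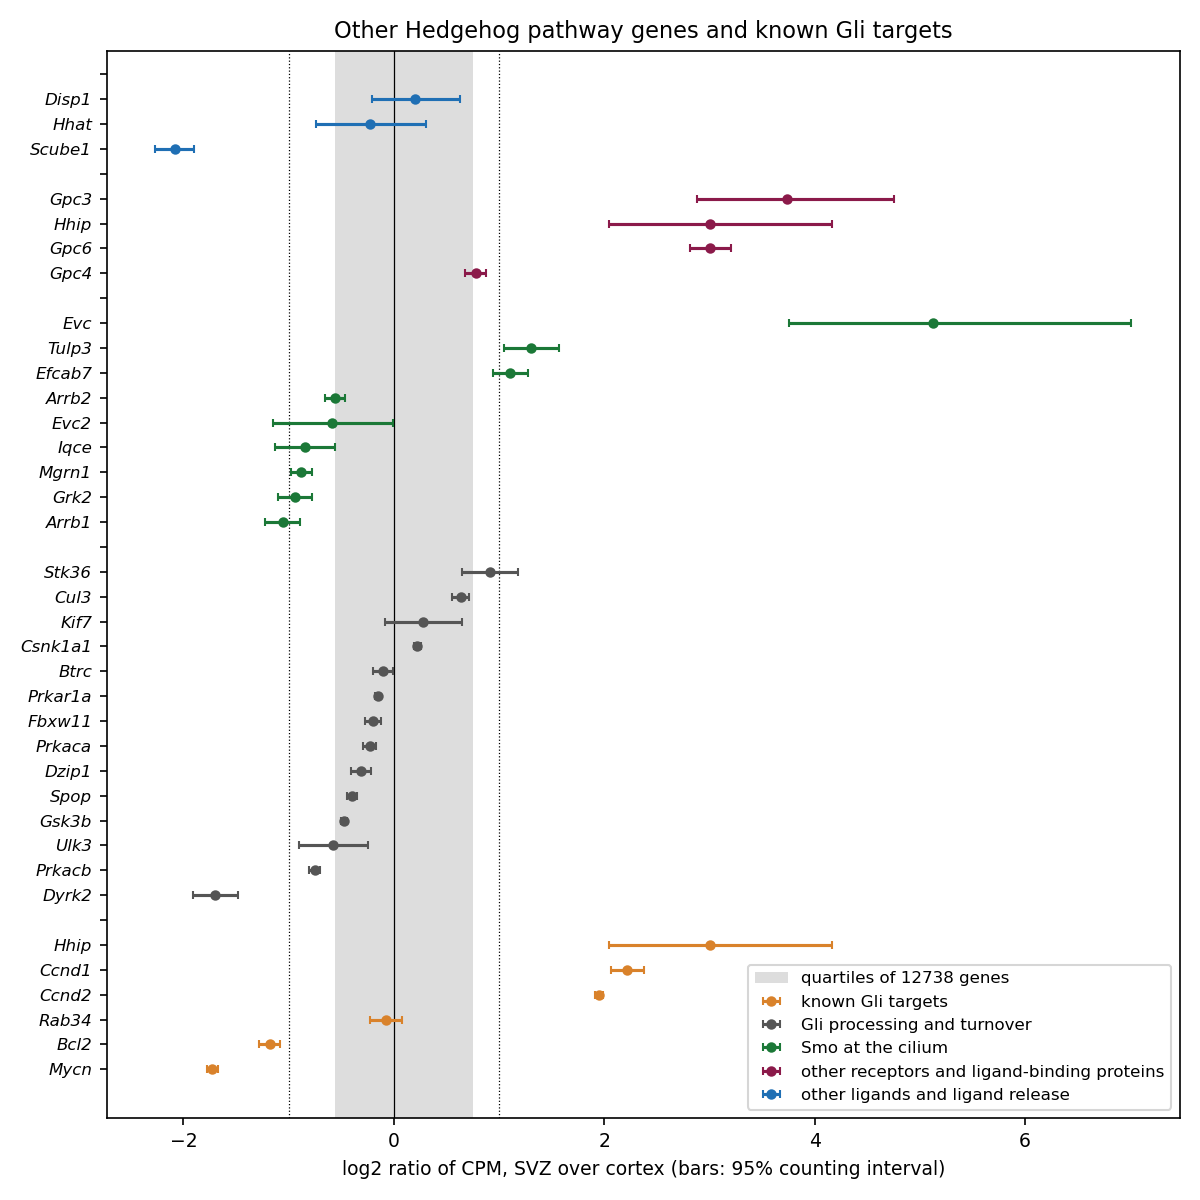
Log2 ratio of SVZ over cortex CPM, with 95% counting intervals, of further Hedgehog pathway genes and known Gli targets whose mean CPM was 1 or more, grouped by role. Dotted lines mark 2-fold and the grey band the quartiles of 12738 genes, and 13 of the 14 Gli processing genes lie within the dotted lines, as do 64.4% of all genes, while Evc (5.12) and Gpc3 (3.74) lie far to the SVZ side.

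Genes known as targets of Gli activity in neural tissue were taken next, a list of 11 that shares Hhip with the pathway list. Only 6 reached a mean CPM of 1. Besides Hhip, the cyclins Ccnd1 and Ccnd2, which drive the G1 phase of the cell cycle, were higher in the SVZ. Ccnd1 had 3861 reads against 355, for a log2 ratio of 2.22 (2.06 to 2.38), and Ccnd2 had 56110 and 6242 reads and 1.95 (1.91 to 1.98). Mycn, a growth-promoting transcription factor, was 3.30-fold higher in the cortex (log2 ratio -1.72, interval -1.78 to -1.67), as was Bcl2, an inhibitor of cell death, 2.26-fold (-1.18, -1.28 to -1.08). Rab34, a ciliary GTPase, had 1125 and 508 reads and no detectable difference (-0.07, -0.23 to 0.08). The counts of 3 higher in the SVZ, among which Hhip had to differ, and 2 in the cortex stand beside 20.0% and 15.6% of all genes. The list is too short to set against those shares.

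Among the ventral targets that mark Shh-exposed tissue, Nkx2-1, Foxa2 and Nkx2-2 were near or at 0, but Olig2 was not. Nkx2-1, the factor of the medial ganglionic eminence, and Foxa2, of the floor plate, had 0 reads in both libraries. Nkx2-2 had 7 reads in the SVZ and 0 in the cortex, and Nkx6-2 was listed at 0 in both, though its stranded columns were not empty. Olig2, which marks ventral progenitors and oligodendrocyte precursors, had 62 reads against 15, for a log2 ratio of 0.83 (-0.01 to 1.75).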

How the data were processed

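Per the study's methods, tissue was cut from haematoxylin and eosin stained cryosections, and libraries were made with a low-input RNA kit. The authors trimmed adapters with cutadapt 4.1 and mapped read 1 to mm10 with STAR 2.7.9a, which gave the deposited counts (whole reads per gene, not normalized). Of the 3 count columns, the unstranded one was used. Reads that map to several places or overlap several genes are in no gene's count. The authors' merged table, which holds these counts for genes read in both libraries and their own CPM, fold changes and log10 changes, was not used.

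CPM was computed here on the sum of gene rows. The 4 lines of unassigned reads, 41.0% of the SVZ library and 40.9% of the cortex library, were left out. Ratios had no pseudocount. For a count of 0 the ratio was computed at 3 reads and is a bound. It was left out if neither count exceeded 3. Gene positions and exon lengths came from GENCODE M21 (GRCm38), matched by symbol for 23377 of 24411 genes. Genes were named by rule: the 10 members, the genes of the pathway and target lists, marker genes, and the 3 genes nearest to the most read member. Members and lists were chosen with earlier results of these data known, and some genes of the lists are not reported here. The alternatives changed the scaling (TMM or upper quartile in edgeR 4.0.16, size factors of DESeq2 1.42.0, or a total that omits the 10 genes with most reads), the count column, the depth of the SVZ library, the pseudocount (1 CPM), the minimum level and the fold. Computations ran in R 4.3.3 and Python 3.11.15 with numpy 2.4.6 and scipy 1.17.1, tables in pandas 2.3.3 and figures in matplotlib 3.10.9. The procedure was tested on simulated counts.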

Additional observations from a re-analysis of the deposited data

Results flagged for a closer look

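Nkx6-2, a Gli target of ventral progenitors, was listed at 0 in the unstranded column for the SVZ and for the cortex. Its stranded columns, summed, held 35 reads from the SVZ and 12 from the cortex, both above the 3 reads that a count of 0 allows. The comparisons above use the unstranded column, and the source of these reads was not tested.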

How the results depend on the processing

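No paired analysis was possible because there was 1 library per area, and for the same reason none could be left out. Of 247 values recomputed, 213 stayed within their counting interval (counts and bounds within 1.5 times), 33 moved further and 1 changed sign. That was the summed ventral markers, at a log2 ratio of -1.46 and, without Npy, 0.33, and this setting and the stranded sum for Pax6 (6.18) were chosen after seeing the data. Some of the 213 could not move, among them the cortex shares when only the SVZ library was thinned. The cortex Gli shares per kilobase could not either, as only Gli3 had reads. Upper-quartile scaling shifted the median of all genes most, by -0.10 (log2).

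With a pseudocount of 1 CPM, which draws low levels towards equality, the log2 ratios were 2.38 for Smo, 1.47 for Gli1, 4.53 for Gli2 and 7.55 for Gli3. The bound of Gli1 was 3.00 in the second stranded column, and with 1 cortex read in the stranded sum its ratio was 5.43. The bound of Gli2 was 6.30 in the first stranded column and 6.37 in the second, which hold fewer reads. The 1 Hedgehog gene 2-fold higher in the cortex, Ptch1, was lost (count 0) with the pseudocount, at 4-fold, where the whole interval had to pass, and where the mean CPM had to reach 10. Of the other pathway genes, 3 were higher in the SVZ at that minimum, and the cortex count was 6 in the first stranded column, 5 with no minimum and 1 at 4-fold. For known targets the cortex count was 0 at 4-fold. Over all genes the SVZ count was 1300 at 4-fold and 1341 at the minimum of 10, and the cortex count 893 and 1113. Per kilobase the SVZ shares were 1.17% for Gli1, 8.89% for Gli2, 89.9% for Gli3, 67.1% for Gas1, 10.1% for Boc and 22.8% for Cdon, and the cortex shares 20.9% for Gas1 and 13.3% for Cdon. The SVZ share of Boc was 9.998% in the first stranded column and 11.6% in the second, and that of Cdon was 40.0% after thinning.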
